A study of Mus musculus with 6 samples.

Results

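Cytosolic ribosomal proteins were examined in the ventromedial hypothalamus (VMH) of mice with and without FoxO1 in that nucleus. The members were the array probes whose annotated symbol is Rpl or Rps with a number, or Rplp0, Rplp1, Rplp2 or Rpsa, and that gave a detection p under 0.05 on 3 or more of the 6 arrays. The symbol rule matched 89 probes of 60 genes. Of these, 72 probes for 52 genes entered the tests, among 20006 tested probes (10825 named genes) of 45281 on the array. The large (60S) subunit contributed 44 probes for 31 genes and the small (40S) subunit 28 probes for 21 genes. Each of the 72 probes was detected on all 6 arrays.

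The study compared 3 pools from mice with a knockout of FoxO1 restricted to the VMH (KO) with 3 pools from wild-type mice (WT), asking which VMH transcripts respond to this transcription factor. Each pool held RNA of 3 untreated animals of mixed strain background and was hybridised to one Illumina Mouse-6 V2 BeadChip. The sources used here give neither the animals' age nor the Cre line, so the share of VMH cells that lost Foxo1 is not known. Because the tissue was measured in bulk, fewer cells of a type and less RNA per cell cannot be told apart. The brighter Foxo1 probe read 6.47, 7.29 and 7.25 log2 in KO and 7.62, 7.49 and 7.84 log2 in WT, and the dimmer one differed by 0.34 log2 in the opposite direction. Neither Foxo1 probe passed limma's test (adjusted p = 0.582 and 0.677), and since the sources do not place them relative to the deleted part, they do not check the labels.

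The cytosolic ribosome translates messenger RNA in all cells. Its small subunit holds the decoding site, and its large subunit joins amino acids and carries the exit tunnel of the growing chain. Each subunit is built in the nucleolus from ribosomal RNA and ribosomal proteins, most of them present as a single copy per ribosome, and their messenger RNAs are among the most abundant of a cell. These messenger RNAs typically begin with a C followed by a stretch of pyrimidines, the 5′ terminal oligopyrimidine (TOP) tract, through which insulin and nutrient signals acting on mTORC1 set their translation. FoxO1 lies in the same insulin pathway, downstream of the kinase AKT.

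Start-site sequences are shown for 7 genes on which the comparison turns. They are genes with small p in each subunit, and Rps15a and Rpl23, whose brightest tested probe ran the other way. Each sequence runs from 50 bases before to 20 bases after the start annotated by RefSeq (GRCm38.p6), 5′ to 3′ on the gene's strand. Capitals mark CTTTC or CTTTT, pieces of a TOP-like tract (gene strand only), the ETS letters CCGGAAGT, the Sp1 letters GGGCGG (both on either strand), and TATAAA. Adjoining or overlapping matches run together.
Rps10 (chr17:27635225-27635294, minus strand): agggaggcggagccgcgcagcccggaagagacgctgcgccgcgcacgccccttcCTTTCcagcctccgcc
Rps27l (chr9:66946036-66946105, plus strand): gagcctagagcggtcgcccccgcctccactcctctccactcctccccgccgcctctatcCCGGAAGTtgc
Rps26 (chr10:128626487-128626556, minus strand): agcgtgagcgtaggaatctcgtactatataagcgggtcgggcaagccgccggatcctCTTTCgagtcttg
Rplp0 (chr5:115559417-115559486, plus strand): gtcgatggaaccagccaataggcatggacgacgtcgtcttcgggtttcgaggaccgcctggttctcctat
Rpl35 (chr2:39005112-39005181, minus strand): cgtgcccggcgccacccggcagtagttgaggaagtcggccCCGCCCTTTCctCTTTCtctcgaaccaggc
Rps15a (chr7:118116128-118116197, minus strand): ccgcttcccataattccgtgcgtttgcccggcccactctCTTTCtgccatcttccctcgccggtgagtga
Rpl23 (chr11:97782420-97782489, minus strand): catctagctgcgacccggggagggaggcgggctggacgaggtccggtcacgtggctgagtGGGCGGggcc

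RefSeq windows of 300 bases around the annotated start were matched by symbol for 44 of the 52 genes, in 53 windows. A C followed by 4 further C or T letters stood at the annotated start in 8 of these windows (15.1%), against 2.51% of all 32851 windows in the RefSeq table, which also hold noncoding genes. CTTTC or CTTTT occurred within 30 bases of the start in 37.7% of the ribosomal windows and 13.6% of all windows. CCGGAAGT occurred in 18.9% of them against 3.89% of all windows, GGGCGG in 62.3% against 35.7%, and AAGATGGC, the letters of YY1, in 5.66% against 2.75%, each on either strand of the 300 bases. TATAAA on the gene strand, searched in the 60 bases before the start, was in 0 of the 53 windows and in 2.87% of all windows. The FoxO letters GTAAACA, on either strand, stood in 1 of the 53 windows (1.89%), that of Rpl41, against 3.65% of all windows. Of the sequences printed above, those of Rps10, Rpl35 and Rps15a begin at the start with the C tract, and that of Rps27l carries CCGGAAGT shortly after it. Rps27l has a further annotated start that is not shown. A match describes these letters only, and the window of a gene with several starts need not be the start used in this tissue.

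Most ribosomal protein genes read slightly higher in KO, but no member passed the test, and 1 of the 3 KO pools set most of the difference. With the brightest probe standing for each gene, 48 of 52 genes had a positive KO minus WT difference, against 52.9% of all tested probes. The median difference was 0.23 log2 over the 31 large subunit genes and 0.21 log2 over the 21 small subunit genes, against 0.021 log2 over all tested probes. Differences ran from -0.27 (Rpl23) to 0.56 log2 (Rps27l), and 0 of 52 genes differed by as much as 1 log2. The median SD within a genotype was 0.20 log2 over the 52 genes, about the size of the median difference.

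With limma's moderated test and Benjamini-Hochberg adjustment over all tested probes, 0 of 72 ribosomal probes passed an adjusted p of 0.05, where 0.005% of all tested probes did (1 probe). The lowest adjusted p among the members was 0.582. At an unadjusted p under 0.05 there were 2 of 52 genes, Rps10 and Rps27l, both higher in KO, or 3.85% of the members against a background of 7.58% in either direction, 3.77% higher and 3.8% lower. Each KO array exceeded each WT array in 10 of 52 genes, where 8.84% of tested probes did so, and below them in 1 gene (Rps15a), where 6.24% did. By subunit, the KO arrays stood clear above WT in 3 of 31 large subunit genes (Rpl35, Rpl37 and Rpl41) and in 7 of 21 small subunit genes (Rps10, Rps15, Rps2, Rps21, Rps26, Rps27l and Rps4x). The first count is near the background share; the second is larger, but the 21 genes vary together across arrays and are not independent counts, and the contrast between subunits was not tested.

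**Figure D1:**
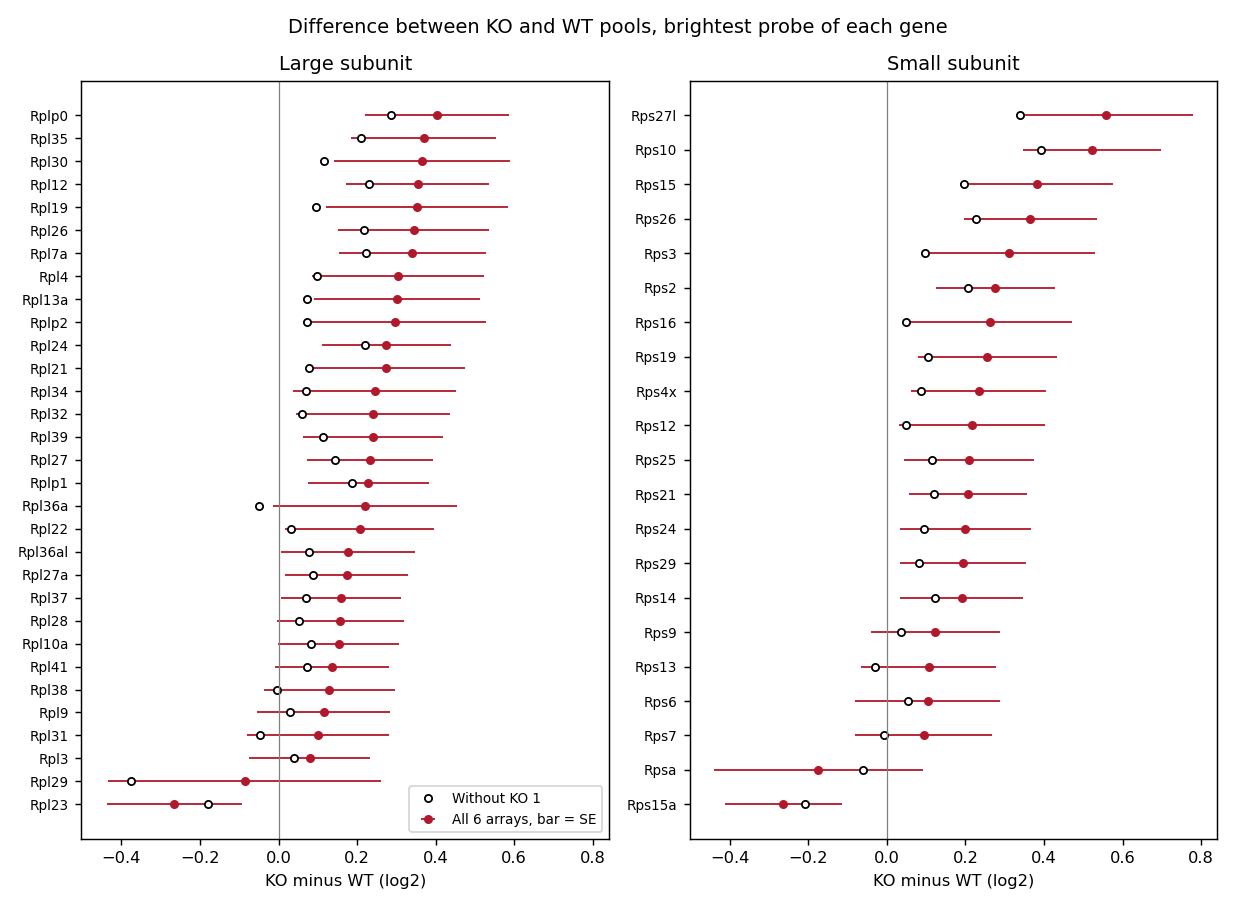
KO minus WT difference (log2, horizontal axis) of the brightest probe of each ribosomal protein gene, large subunit at left and small subunit at right; filled points use all 6 arrays with the model's SE as bar, and open points leave out KO 1. Filled points lie above 0 for 29 of 31 and 19 of 21 genes, and most open points lie closer to 0.

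The KO pools differed among themselves by more than KO differed from WT. The median deviation of the large subunit genes from their 6-array means was 0.40, -0.13 and 0.058 log2 on KO 1 to KO 3, compared with -0.13, -0.028 and -0.14 log2 on WT 1 to WT 3. Small subunit genes gave 0.32, -0.11 and 0.095 log2 on the KO arrays and -0.096, -0.066 and -0.14 log2 on the WT arrays. KO 1 was thus the highest array for both subunits, KO 3 stood next, and KO 2 lay among the WT arrays. Of the 52 genes, 47 had their highest value on KO 1, 3 on KO 3 and 2 on WT 1. Over all tested probes KO 1 was the highest array for 36.7% and the lowest for 33%, so it was often the extreme array in either direction.

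Set against the mean of the WT arrays, the median gene read 0.46 log2 higher on KO 1, 0.015 log2 higher on KO 2 and 0.19 log2 higher on KO 3. KO 2 lay below the WT mean for 21 of the 52 genes. The median gap between KO 1 and KO 2, both knockout pools, was 0.45 log2. KO 1 exceeded all WT arrays for 49 genes, KO 2 for 14 and KO 3 for 38 (94.2%, 26.9% and 73.1%). Over all tested probes these shares were 42%, 28.9% and 28.5%, so the share for KO 2 was near the background.

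Without KO 1 the median difference was 0.078 log2 for the large and 0.095 log2 for the small subunit, against 0.014 log2 over all tested probes. Differences were then positive in 43 of 52 genes, where 52.8% of all tested probes were positive. KO 2 and KO 3 both lay above all WT arrays in 10 of the 52 genes, against 11.5% of tested probes, and both below in 1, against 8.33%. At an unadjusted p under 0.05 there was 1 gene without KO 1, where 4.53% of all probes stood, and 0 passed after adjustment. Leaving out KO 2 instead gave medians of 0.34 and 0.32 log2 for the large and small subunit.

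**Figure D2:**
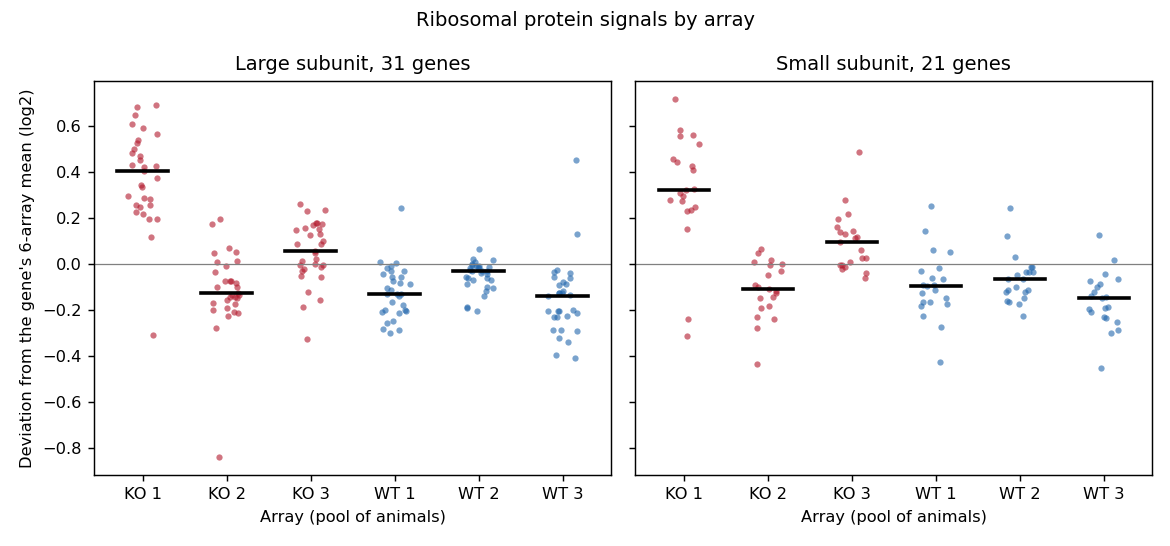
Deviation of each ribosomal protein gene from its own 6-array mean (log2, vertical axis) on each array, KO pools in red and WT pools in blue; each point is a gene and the black bar is the median. The medians stand at 0.40 and 0.32 log2 on KO 1, and KO 2 overlaps the WT arrays.

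Over the whole array, too, KO 1 was unlike the other pools. Its mean correlation with the other arrays was 0.954, where the others had 0.977 to 0.981, and it had the fewest detected probes (18771 against up to 20445). The mean of 26 exocrine pancreas markers, foreign to this tissue, ran from 8.43 to 11.38 log2 in KO, with KO 1 highest, and from 7.90 to 10.78 log2 in WT, with WT 1 highest. Summed, these markers ran from 24342 to 124978.3 signal units in KO and from 17932.4 to 92817.6 in WT, and Ctrc, Ptf1a and Rbpjl were detected on no array. With the pancreas mean fitted as a covariate the subunit medians were 0.21 and 0.19 log2. The 12 microglia markers summed to 4606.4 to 6043.4 in KO, with KO 1 highest, and to 3857.7 to 4709 in WT, with Itgam detected on no array. By marker, 10 of the 12 were highest on KO 1, while Csf1r and Cx3cr1 were lowest there. The 5 red cell markers that were tested summed to 16669.5 to 19977.3 in KO, with KO 1 lowest, and to 12394.6 to 14343.3 in WT (Epb42, Ermap and Slc4a1 on no array). The 12 VMH neuron markers were all detected, at 23741 to 31376.4 in KO, with KO 1 lowest, and 28352 to 30571.3 in WT. KO 1 was the highest array both for the pancreas mean and for the ribosomal genes (mean deviation 0.36 log2). WT 1, next highest for the pancreas mean, stood at -0.11 log2 for the ribosomal genes. With few arrays and these values on KO 1 and WT 1, the pancreas fit cannot settle how much pancreas content contributes. The part of red cell, microglia and neuron content in the ribosomal difference was not tested.

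Among small subunit proteins, Rps10, which sits on the subunit's head, had the smallest p. It read 13.12, 12.67 and 12.80 log2 in KO and 12.17, 12.43 and 12.40 log2 in WT, so each KO pool lay above each WT pool. The difference was 0.52 log2 (SE 0.18) or 1.44-fold, with an unadjusted p of 0.0166 and a limma adjusted p of 0.582, and it was 0.39 log2 without KO 1.

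Rps27l, a paralogue of Rps27 known as a p53-induced gene, had the largest difference of the 52 genes. Its values were 12.13, 11.32 and 11.63 log2 in KO and 11.25, 11.19 and 10.96 log2 in WT. The groups did not overlap, although KO 2 and WT 1 lay close together. Means were 11.69 ± 0.41 log2 (SD, n = 3) for KO and 11.14 ± 0.15 log2 (SD, n = 3) for WT, 0.56 log2 apart (SE 0.22) or 1.47-fold (limma adjusted p = 0.582), and 0.34 log2 without KO 1. The Rps27 parent gene is not analysed here.

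Rps26, a protein of the messenger RNA exit channel, read 13.41, 12.95 and 13.05 log2 in KO and 12.78, 12.81 and 12.73 log2 in WT. The KO pools were all higher, by 0.37 log2 on average (SE 0.17), and the SD of the WT pools was 0.043 log2. Rps15, which reaches toward the decoding site, differed by 0.38 log2 (SE 0.19), and Rps2, which lines the messenger RNA entry, by 0.28 log2 (SE 0.15), both with KO and WT arrays apart. The dimmer Rps2 probe gave 0.32 log2 and was also higher on each KO array. Without KO 1 these differences were 0.23 for Rps26, 0.20 for Rps15 and 0.21 log2 for the brighter Rps2 probe.

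Rps3, also at the messenger RNA entry, followed the common pattern of the members most closely. Its brighter probe read 13.32, 12.51 and 12.85 log2 in KO and 12.59, 12.70 and 12.45 log2 in WT, with KO 2 below both WT 1 and WT 2. Rps19, the protein most often affected in Diamond-Blackfan anaemia, differed by 0.26 log2 (SE 0.18) and by 0.11 without KO 1. Rps6, the substrate of S6 kinase at the end of the mTORC1 pathway, read 12.81, 12.38 and 12.94 log2 in KO and 12.50, 12.65 and 12.68 log2 in WT. For Rps6 the groups overlapped, with KO 2 lowest of all, and the difference was 0.10 log2 (SE 0.18). Rps7 differed by 0.094 log2 (SE 0.17), -0.0074 without KO 1.

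**Figure D3:**
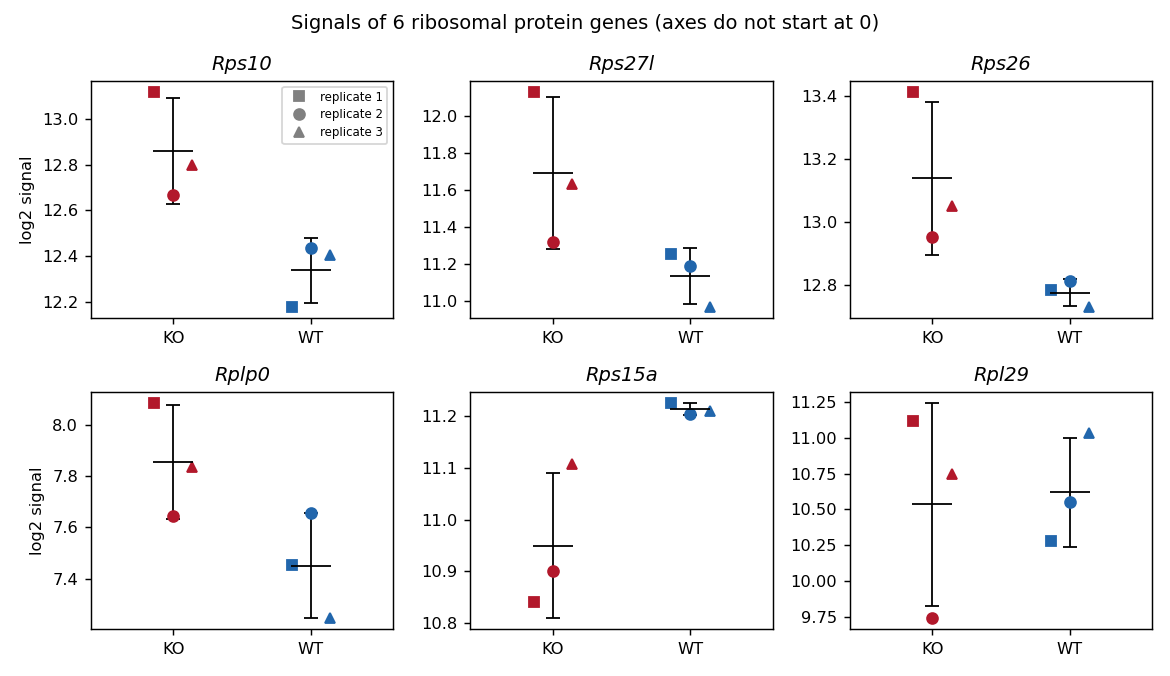
Background-corrected log2 signals (vertical axis, not from 0) of Rps10, Rps27l, Rps26, Rplp0, Rps15a and Rpl29 in KO and WT, with mean and SD as black bars and the replicate number as symbol. The groups do not overlap for Rps10, Rps27l and Rps26, nor for Rps15a, which is lower in KO; Rpl29 is lowest on KO 2.

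In the large subunit the smallest p belonged to Rplp0, the scaffold of the stalk that recruits elongation factors. Rplp0 read 8.09, 7.65 and 7.83 log2 in KO and 7.45, 7.65 and 7.25 log2 in WT. KO 2 and WT 2 coincided within 0.01 log2, so the groups overlapped. The difference was 0.40 log2 (SE 0.18) with an unadjusted p of 0.0563 (limma adjusted p = 0.582), and 0.29 log2 without KO 1; this probe read only 279 to 398.7 signal units, and the other Rplp0 probe was detected on no array.

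The acidic stalk proteins Rplp1 and Rplp2, which bind to Rplp0, differed by 0.23 log2 (SE 0.15) and 0.30 log2 (SE 0.23). Rplp1 read 41187.7 signal units on KO 1 and KO 2, the highest signal on any array. In the quantile-normalized signals this is the top value shared by the arrays, so Rplp1 could not rank higher there. How this affects the size of its difference was not tested. On KO 3 Rplp1 read 34622.7 units, against 32875.3, 35584.7 and 31257.3 units on the WT arrays, inside the WT range. Rplp2 read 13.85, 13.43 and 12.93 log2 in KO and 13.23, 13.07 and 13.03 log2 in WT. For Rplp2 the KO pools spanned the whole WT range, and its difference was 0.074 log2 without KO 1. Rpl12, at the base of the stalk, differed by 0.35 log2 (SE 0.18), with WT 2 above KO 2.

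Rpl35, which lies at the mouth of the exit tunnel, read 14.21, 13.77 and 13.71 log2 in KO and 13.50, 13.69 and 13.39 log2 in WT. KO and WT arrays of Rpl35 did not overlap, but KO 3 and WT 2 were 0.03 log2 apart. Its difference was 0.37 log2 (SE 0.19), 0.21 without KO 1. Rpl26, also near the tunnel exit, differed by 0.34 log2 (SE 0.19) and Rpl39, which lines the tunnel, by 0.24 log2 (SE 0.18), both with overlapping arrays.

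Among other large subunit proteins, Rpl7a differed by 0.34, Rpl30 by 0.37 and Rpl24 by 0.27 log2, each with overlap. Without KO 1 these were 0.22, 0.12 and 0.22 log2. Rpl32 and Rpl22, which followed the common pattern closely, differed by 0.24 and 0.21 log2, and by 0.061 and 0.033 without KO 1. Rpl3, near the catalytic centre of the subunit, gave 0.079 log2 (SE 0.15). Rpl41, the smallest ribosomal protein, differed by 0.14 log2 (SE 0.15), with each KO array above each WT array, and by 0.072 without KO 1. Without that pool, 10 of the 52 genes had a difference of at least 0.2 log2, and 9 were negative. The 10 genes were Rps10, Rps27l, Rplp0, Rpl12, Rps26, Rpl7a, Rpl24, Rpl26, Rpl35 and Rps2. The matching share of all tested probes was not computed, so this count does not show that the 10 genes exceed the background. With all arrays, the upper quartile of the differences of all tested probes was 0.21 log2.

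Rps15a, which binds 18S ribosomal RNA, ran against the rest. It read 10.84, 10.90 and 11.11 log2 in KO and 11.23, 11.20 and 11.21 log2 in WT, so that each KO pool lay below each WT pool. Means were 10.95 ± 0.14 log2 (SD, n = 3) for KO and 11.21 ± 0.011 log2 (SD, n = 3) for WT. The difference of -0.26 log2 (SE 0.15) did not pass (unadjusted p = 0.113, limma adjusted p = 0.582). It was lowest on KO 1, where 47 of the genes were highest, and its difference was -0.21 without that array.

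Rpl23, which contacts the small subunit, had its most negative difference on its brightest probe. That probe read 14.62, 14.70 and 15.05 log2 in KO and 15.17, 14.94 and 15.05 log2 in WT, a difference of -0.27 (SE 0.17), with KO 3 inside the WT range. Its other tested probes differed by -0.016 and 0.17 log2. The probes therefore do not give the gene a common direction.

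Rpl29 varied widely among pools of the same genotype. Its brighter probe read 11.12, 9.74 and 10.75 log2 in KO and 10.28, 10.55 and 11.03 log2 in WT, and the dimmer one 8.18, 5.41 and 7.63 in KO and 7.26, 7.66 and 8.28 in WT. Both probes were lowest on KO 2 and next lowest on WT 1. The brighter probe differed by -0.086 log2 (SE 0.35), by -0.38 without KO 1, by 0.31 without KO 2 and by 0.12 without WT 3. Rpsa, also known as the laminin receptor precursor, was read by a dim probe (167.7 to 205.7 signal units) that differed by -0.18 log2 (SE 0.27).

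Of the 14 genes with more than 1 tested probe, 10 had all probes higher in KO, 1 (Rpl29) had all lower, and 3 (Rpl23, Rps13 and Rps24) had probes of both signs. Counted by probe, 64 of 72 were higher. Rpl27a is an example of probes that share a sign but not a size. Its brightest probe differed by 0.17 log2 (SE 0.16), and a second bright probe read 13.45, 12.94 and 12.99 log2 in KO and 12.35, 12.67 and 12.70 log2 in WT. On that second probe the groups were apart, with a difference of 0.55 log2 (SE 0.19; unadjusted p = 0.0203, limma adjusted p = 0.582). Rps24 probes ran from -0.092 to 0.47 log2, and Rps13 probes from -0.32 to 0.11, where the brighter Rps13 probe was -0.030 without KO 1. Both Rps24 extremes came from dim probes (204.8 to 359.8 signal units), and its brightest probe gave 0.20 log2. The -0.32 log2 of Rps13 also came from a dim probe (204.3 to 262.6 units). Ribosomal protein genes have many processed pseudogenes and some near-identical copies, and whether a probe also reads such copies was not tested.

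The paralogue pair Rpl36a and Rpl36al, close relatives of each other, gave 0.22 (SE 0.23) and 0.18 log2 (SE 0.17). Rpl36a read 12.66, 11.87 and 11.82 log2 in KO and 11.99, 11.82 and 11.88 log2 in WT, so only KO 1 stood above the WT range, and its difference was -0.049 without that array. Rpl36al was 0.079 without it. Rps4x differed by 0.23 log2 (SE 0.17), with KO and WT arrays apart, and by 0.088 without KO 1. Its relative Rps4l was left out as an annotated transcribed pseudogene.

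The remaining 16 probes of the symbol rule were not tested. Of these, 13 were detected on no array and 3 on 1 or 2 arrays, and their highest signals lay between 137.1 and 178.5 units. They include the paralogues Rpl39l, on no array, and Rpl3l, known from muscle and detected on 1 KO and 1 WT array. They also include the only probes here for Rpl14, Rpl17, Rpl6, Rps20 and Rps23, so that 7 genes had no tested probe; 9 of the 16 belong to genes that another probe measured brightly enough to be tested.

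Across arrays the members varied together. The median Pearson r between gene pairs over the 6 arrays was 0.81 within the large subunit, 0.82 within the small subunit and 0.82 between subunits. Without KO 1 these were 0.44, 0.52 and 0.49. The values describe 6 shared arrays and carry no test. The same r was not computed for other probes, so these values do not show that covariation is particular to ribosomal protein genes. The genes most like the mean of the others were Rps3, Rpl32 and Rps19 (r = 0.992, 0.992 and 0.988), and those least like it were Rps15a (-0.66), Rpl23 (-0.60) and Rpsa (-0.13).

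Other genes of the translation apparatus were described in the same way, and 0 members of any of these lists passed the adjusted threshold. Among 44 translation factors 32 were positive with a median of 0.060 log2 (0.057 without KO 1). At an unadjusted p under 0.05, 1 gene (2.27%) was higher and 0 lower, where 3.77% of all tested probes were higher and 3.8% lower. That gene was Eif3j1, an initiation factor subunit, 0.40 log2 higher with each KO array above each WT array, and Abce1, which splits ribosomes after termination, differed by 0.49 log2 (limma adjusted p = 0.582 for both). Without KO 1 both differed by 0.26 log2. Among 46 ribosome assembly genes 33 were positive with a median of 0.18 log2. Without KO 1 the median was 0.057 log2, with 28 positive. The smallest p there went to Noc2l, lower in KO by 0.44 log2 (unadjusted p = 0.0247), followed by Heatr1 with a difference of -0.41 log2. Without KO 1 these were -0.34 and -0.29 log2. The RNA polymerase I list, of the enzyme making the ribosomal RNA precursor, includes Polr2e, Polr2f, Polr2h and Polr2l, subunits shared with other RNA polymerases. Its median was 0.19 log2 over 16 genes, 11 positive, with Taf1d at 0.62 and Polr2f at 0.50 log2 but the catalytic subunit Polr1a at -0.60. Without KO 1 that median was 0.054 log2, and the genes stood at 0.42 (Taf1d), 0.30 (Polr2f) and -0.27 log2 (Polr1a).

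Factors that meet the nascent chain had a median of 0.24 log2 over 20 genes, of which 17 were positive, where 52.9% of all tested probes were. Without KO 1 the median was 0.11 log2 with 14 positive. An unadjusted p under 0.05 was then found for 0 of the 20, against 4.53% of all tested probes. Sec61b, of the translocon, differed by 0.46 log2 and Srp19, of the signal recognition particle, by 0.78 log2, both at an unadjusted p under 0.05 with all arrays, and by 0.28 and 0.45 log2 without KO 1. The Sec61b arrays were apart, but those of Srp19 overlapped, with KO 3 at 7.17 log2 below WT 2 at 7.28 log2. The 3 genes of the ribosomal family with other symbol forms that were tested were Rps3a1 at 0.76, Rpl22l1 at 0.39 and Rpl7l1 at 0.32 log2. Rps3a1, the mouse gene for a small subunit protein, read 10.27 log2 on KO 1 and 8.78 and 8.63 on the other KO arrays, against 8.72, 8.21 and 8.46 in WT. KO 1 alone lay far from the rest, and without it the difference was 0.24 log2. Rpl22l1 and Rpl7l1 gave -0.12 and 0.14 log2 without KO 1. Regulators of ribosomal protein synthesis had a median of -0.095 log2 over 14 genes, 6 of them positive, and -0.023 without KO 1. Tsc1, an mTORC1 inhibitor, had the smallest p there with -1.19 log2 (unadjusted p = 0.0101, limma adjusted p = 0.582), and -0.95 without KO 1. The Tsc1 arrays overlapped, with KO 3 at 6.85 log2 above WT 2 at 6.69 log2. On KO 1 and KO 2 Tsc1 was dim, at 5.73 and 6.06 log2. Mtor followed with -0.46 on its brightest probe (-0.19 without KO 1) and 0.70 on a dimmer one.

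Mitochondrial ribosomal proteins, which build the separate ribosome of that organelle, gave 70 of 73 positive genes and a median of 0.31 log2. Mrps15 differed by 0.69 log2 and Mrpl39 by 0.53 log2, again without passing (limma adjusted p = 0.582 for both). Without KO 1 these were 0.43 and 0.44 log2. Mrpl39 was dim, at 5.50 to 6.40 log2 over the arrays. Mrps12 ran the other way, by -0.58 log2, and by -0.82 without KO 1. In 21 of the 73 genes each KO array exceeded each WT array, where 8.84% of all tested probes did so, and without KO 1 the list's median was 0.13 log2. The mean deviation of the mitochondrial list was 0.46 log2 on KO 1, where it was 0.38 for the large and 0.32 for the small cytosolic subunit. On KO 2 the cytosolic subunits stood at -0.11 log2 each and the mitochondrial list at -0.026. The difference between cytosolic and mitochondrial proteins was not tested.

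**Figure D4:**
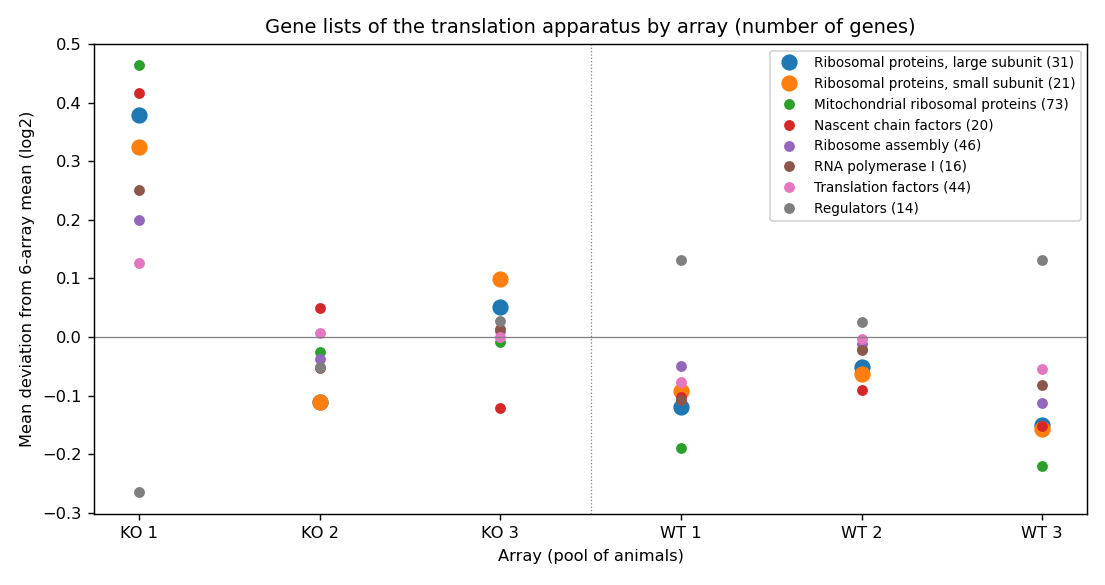
Mean deviation from the 6-array mean (log2, vertical axis) of 8 gene lists on each array, KO pools left and WT pools right of the dotted line; large points are the cytosolic ribosomal subunits. By these means KO 1 is highest for 7 lists and lowest for the regulators (-0.27 log2), whose median on KO 1 is instead 0.12 log2.

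The medians moved with the pools used and with the removal of a gene span trend. The deposited signals already shared one distribution, so rescaling them could move the medians little, and the authors' log2 table holds the same values as the fit without background correction. Background correction, offset, scaling and filter settings left them between 0.21 and 0.24 log2 for the large and between 0.19 and 0.21 log2 for the small subunit, and array weights gave 0.16 and 0.17. When the trend of each array with annotated gene span was removed, the medians were 0.087 and 0.059 log2, with 20 of 31 and 13 of 21 genes positive. The median annotated span was 3249.5 bp over the members, against 25850 bp over the genes of all tested probes. Rpl41 and Rplp1 then read -0.13 and -0.021 log2, while Rps10 and Rps27l stayed positive under each setting tried (0.31 to 0.62 and 0.34 to 0.75 log2). This was not particular to Rps10 and Rps27l. Among others, Rplp0 (0.25 to 0.51), Rpl35 (0.20 to 0.46) and Rps26 (0.17 to 0.46 log2) also stayed positive.

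**Figure D5:**
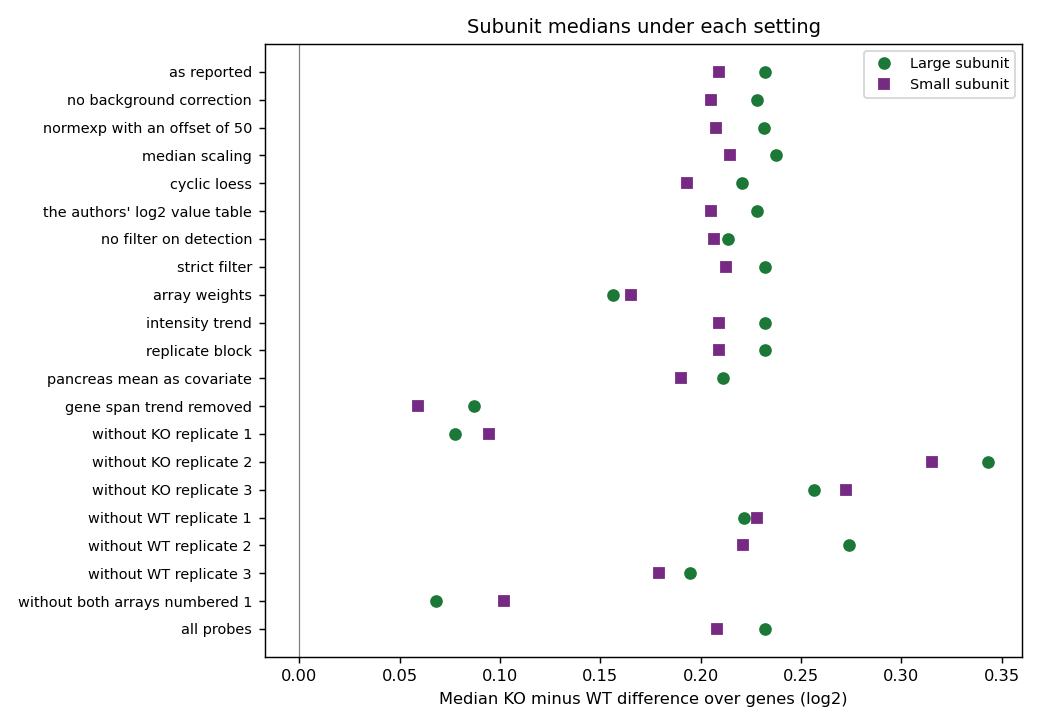
Median KO minus WT difference over the genes of each subunit (log2, horizontal axis) as reported and under each alternative setting. The points lie near 0.2 log2 for most settings, at 0.078 and 0.095 without KO 1, and at 0.087 and 0.059 with the gene span trend removed.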

How the data were processed

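Probe intensity values had been quantile-normalized before the authors deposited them: sorted signals of the 6 arrays differ by at most 0.4 units. The deposited log2 value table equals the log2 of these signals within 5e-05. Each signal comes with a detection p-value, per the file headers. The submitters' processing notes name Partek; its settings are not recorded there. Because each array was forced to one distribution, totals carry no information on RNA amount.

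Signals went through limma 3.58.1 neqc in R 4.3.3 (normexp background from the detection p, offset 16, quantile normalization, log2). Probes detected on at least 3 arrays entered lmFit and eBayes for KO against WT (2-sided, Benjamini-Hochberg at 0.05), without covariates, after a test on simulated data. The array number (3 per group) limits the precision, and pools are the replicates. Of all probes, 34885 had 1 symbol, 18 several and 10378 none here. Entrez identifiers linked probes to current symbols in the RefSeq table of GRCm38.p6, which also gave the promoter windows and gene spans. No protein sequence was used.

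Members and lists were chosen with earlier results of these data known. Named genes follow a rule: per subunit the 6 smallest p and the 3 largest differences each way, paralogues, stalk and textbook members, genes whose probes disagree, the members most and least like the mean, and the 2 smallest p per list; others, such as Rpl27a, were named after their values were seen.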

Additional observations from a re-analysis of the deposited data

How the results depend on the processing

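In 0 of the settings tried did a ribosomal protein gene of either subunit pass the adjusted threshold; at an unadjusted p under 0.05, 2 small subunit genes and 1516 of all tested probes did. The single call among all tested probes became 0 without background correction, with an offset of 50, cyclic loess, the authors' log2 table, no filter, the strict filter, an intensity trend, the replicate block or the pancreas covariate, and was 0 to 1 when each array was left out in turn. Medians with each array left out ran from 0.078 (without KO 1) to 0.34 log2 (without KO 2) for the large subunit and from 0.095 to 0.32 for the small; without both arrays numbered 1 they were 0.068 and 0.10. Of 607 values for 32 named genes, 588 kept their direction and 0 passed (limma adjusted p from 0.371 to 0.999). The filter settings, the intensity trend and the replicate block cannot change a gene's difference. The authors' log2 table repeats the fit without background correction. Part of the 588 was therefore fixed in advance. The signs that turned were, with array weights, Rpsa (0.19) and Rpl36a (-0.0016); with the span trend removed, Rpl3 (-0.027), Rps7 (-0.019), Rps13 (-0.057), Rpl36al (-0.062), Rplp1 (-0.021), Rps6 (-0.044) and Rpl41 (-0.13); without KO 1, Rps7 (-0.0074), Rps13 (-0.030) and Rpl36a (-0.049); without KO 2 and without WT 3, Rpl29 (0.31 and 0.12); without KO 3, Rps6 (-0.011); and without both arrays numbered 1, Rpsa (0.020), Rps13 (-0.067), Rpl36a (-0.0020) and Rps6 (-0.0033). Over the arrays left out in turn, Rpl29 ran from -0.38 to 0.31, Rps7 to 0.24, Rpl36a to 0.37 and Rps6 to 0.27. The causes were not tested. Equal replicate numbers share no stated source, so KO and WT arrays were not treated as pairs. Same-numbered KO and WT arrays correlated in their deviations from the group mean at 0.15, 0.0037 and 0.40. Differently numbered KO and WT arrays correlated at -0.29 to 0.10. Whether equal numbers mark a shared source was not tested. With the replicate block the medians were again 0.23 and 0.21. That fit cannot change them, because each number has a KO and a WT array, so it does not bear on pairing. Rplp1 lay at the top signal on KO 1 and KO 2, and whether the common distribution compresses the differences of bright probes was not tested.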
